A study of Mus musculus with 19 samples.

Results

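Mitochondrial chaperones and proteases were followed in mouse cells given thapsigargin, through 9 genes taken by name from the 55401 gene identifiers of the deposited count tables. The 4 protease genes are Lonp1, Clpp, Clpx and Yme1l1, and the 5 chaperone genes are Hspa9, Dnaja3, Hspd1, Hspe1 and Trap1. The cells were C2C12, an established line of mouse myoblasts, of wild-type (WT) genotype in every group. Thapsigargin at 100 nM, an inhibitor of the SERCA calcium pump of the endoplasmic reticulum (ER), was given for 2 h (n = 3), 6 h (n = 3) or 12 h (n = 2), and each of these groups had a group given the vehicle DMSO for the same time and of the same size. A recovery group (n = 3) had 6 h of thapsigargin followed by 48 h in medium without it, and no vehicle group was kept as long as it, so the removal of the drug and the longer culture cannot be told apart. Polyadenylated RNA was sequenced in bulk in 19 libraries. The labels do not say that replicates were separate cultures, so p-values measure only how far these samples differ, and that spread may be technical.

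Most mitochondrial proteins are made in the cytosol, threaded through the inner membrane unfolded and folded again in the matrix. Mitochondrial Hsp70 (Hspa9) pulls them in and, with its J-domain partner Dnaja3, keeps them from clumping; the Hsp60 and Hsp10 chaperonin (Hspd1, Hspe1) gives them a closed chamber to fold in; Trap1 is the Hsp90 of this compartment. Proteins that stay misfolded are cut by the matrix proteases LONP1 and CLPXP (Clpx is the unfoldase, Clpp the peptidase), while YME1L works on the intermembrane side of the inner membrane. In mammals, transcription of several of these genes is linked to ATF4, ATF5 and CHOP (Ddit3), factors of the integrated stress response, the subject of the series by its title.

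All 9 genes passed the filter on low counts. Total counts per library, in units of M (mega) reads, ranged over 32.13 to 40.96 (2 h), 31.66 to 36.2 (6 h) and 17.31 to 21.83 (12 h), with 23.59, 38.31 and 37.09 in recovery. The lowest count of a member in any library was 58, for Clpx in replicate 1 of recovery. Libraries stood apart in 2 ways that touch the members. Mitochondrially encoded RNA made up 15.8% of the counts of DMSO replicate 3 at 2 h and 14.9% of those of recovery replicate 1, against 1.41% to 3.07% elsewhere. Long transcripts (at least 4892 bases) also stood higher against short ones (up to 2265 bases) in some libraries than in others. On the log2 scale, relative to the mean of all libraries, this length trend ran from 0.74 to 1.30 at 2 h and from 0.49 to 0.69 at 12 h. At 6 h it was -0.01, -1.36 and -1.09 in thapsigargin against -1.02, -0.73 and -1.55 in DMSO, and it was -1.77, -0.16 and -0.95 in recovery. Myoblast markers (Myod1, Myf5, Cdh15, Itga7, Des and Vim) summed to 6546 to 11537 CPM (counts per 1 M reads of a library) in thapsigargin at 6 h against 13652 to 20108 CPM in DMSO, and to 2250 to 2479 CPM in thapsigargin at 12 h against 5448 to 5493 CPM in DMSO. Among these 6 markers, Myf5 rose (3.23 on the log2 scale at 6 h and 2.95 at 12 h), Vim and Cdh15 fell at 6 h and Vim and Myod1 at 12 h, and the others did not pass.

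RefSeq promoter windows were matched for 8 of the 9 genes (Hspa9 is named only), each with 250 bases before and 50 after the annotated start on GRCm38.p6. They are shown for Lonp1 and Dnaja3, which responded to the drug, for Hspe1, whose window shares 285 bases with a window of Hspd1, and for Trap1. Capitals mark TGACG, the core of the response elements bound by ATF and CREB proteins, on either strand (CGTCA on the other), and GAANNTTC, a pair of facing heat shock factor units.
Lonp1, minus strand, chr17:56626854-56627153: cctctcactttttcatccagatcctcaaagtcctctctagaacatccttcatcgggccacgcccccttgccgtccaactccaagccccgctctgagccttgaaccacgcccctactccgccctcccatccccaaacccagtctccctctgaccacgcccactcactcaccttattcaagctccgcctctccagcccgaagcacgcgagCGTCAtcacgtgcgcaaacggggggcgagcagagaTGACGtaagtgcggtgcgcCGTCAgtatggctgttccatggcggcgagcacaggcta
Dnaja3, plus strand, chr16:4683820-4684119: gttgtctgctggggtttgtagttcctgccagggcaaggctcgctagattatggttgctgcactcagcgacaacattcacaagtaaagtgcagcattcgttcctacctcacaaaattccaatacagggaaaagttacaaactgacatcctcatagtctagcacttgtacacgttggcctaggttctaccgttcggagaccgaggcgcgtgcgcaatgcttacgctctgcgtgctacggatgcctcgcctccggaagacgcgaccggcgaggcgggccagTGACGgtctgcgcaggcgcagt
Hspe1, plus strand, chr1:55087898-55088197: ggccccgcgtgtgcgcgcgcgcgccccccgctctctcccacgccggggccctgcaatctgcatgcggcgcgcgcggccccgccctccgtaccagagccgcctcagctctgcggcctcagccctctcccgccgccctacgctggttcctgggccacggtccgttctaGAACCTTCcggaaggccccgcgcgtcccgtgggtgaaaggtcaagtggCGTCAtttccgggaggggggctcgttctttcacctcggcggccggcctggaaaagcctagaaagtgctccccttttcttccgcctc
Trap1, minus strand, chr16:4077761-4078060: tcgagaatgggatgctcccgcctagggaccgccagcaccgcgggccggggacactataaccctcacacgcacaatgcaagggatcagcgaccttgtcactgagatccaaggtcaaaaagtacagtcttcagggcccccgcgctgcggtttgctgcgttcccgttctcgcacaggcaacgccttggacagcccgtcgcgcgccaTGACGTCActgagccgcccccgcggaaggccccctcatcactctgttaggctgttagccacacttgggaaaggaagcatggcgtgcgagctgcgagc
The Lonp1 window held 3 TGACG matches, which began 42 and 7 bases before the start and 12 bases after it. Of all 32851 promoters of this length, 1.03% held 3 or more, and 20.8% held at least 1. Dnaja3 had 1 match 28 bases past the start, Hspe1 had 1 match 36 bases before it, and Trap1 had a pair that overlap as the palindrome TGACGTCA, 47 and 44 bases before it. Among windows not shown, Yme1l1 had 1 match 55 bases before the start. A window of Hspd1 had 1 match 184 bases before its start, in the stretch shared with Hspe1. The windows of Clpp and Clpx had none, so matches lay in genes that did and did not respond to the drug. GAANNTTC, which is its own reverse complement, lay 84 bases before the Hspe1 start, in the stretch shared with Hspd1, and in 7.86% of all promoters. Neither TGATGNAA, the composite element of CEBP and ATF factors (3.97% of promoters), nor the ER stress response element (ERSE, 0.119%) was found in the windows of the 8 genes, on either strand. These letters describe the windows alone; binding was not measured here.

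Lonp1 had the largest change of the 9 genes with the drug at 6 and 12 h. It encodes the ATP-dependent Lon protease of the matrix and lies on chromosome 17 of GRCm38 (minus strand, from 56614297 to 56626887). In CPM on TMM-scaled library sizes, Lonp1 stood at 205, 214 and 211 in thapsigargin at 2 h against 158, 155 and 116 in DMSO. At 6 h it stood at 600.3, 810.1 and 783 CPM in thapsigargin and 219, 184 and 222 CPM in DMSO. At 12 h it stood at 626 and 708 CPM in thapsigargin and 155 and 154 CPM in DMSO. The groups did not overlap at any of the 3 times, and the step at 2 h was the smallest. By edgeR's quasi-likelihood test, adjusted over 18039 genes, Lonp1 rose 3.51-fold at 6 h (log2 difference 1.81 ± 0.18 SE, adjusted p = 3.38e-06) and 4.32-fold at 12 h (2.11 ± 0.22, adjusted p = 8.8e-06). At 2 h its difference of 0.56 ± 0.17 did not pass (adjusted p = 0.0851), and it did pass without the libraries of high mitochondrial RNA (0.49, adjusted p = 0.0435), without replicate 1 of recovery alone (0.56, 0.0347), with length and GC offsets (0.52, 0.0311) and in DESeq2 (0.57, 0.00537). The response at 6 h exceeded that at 2 h by 1.25 ± 0.25 (log2, adjusted p = 0.00811), a call that ended under total-count scaling (1.16, adjusted p = 0.156) and with no filter on low counts (1.23, adjusted p = 0.0969), while the responses at 12 and 6 h differed by 0.30 ± 0.27 (adjusted p = 0.999).

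**Figure D1:**
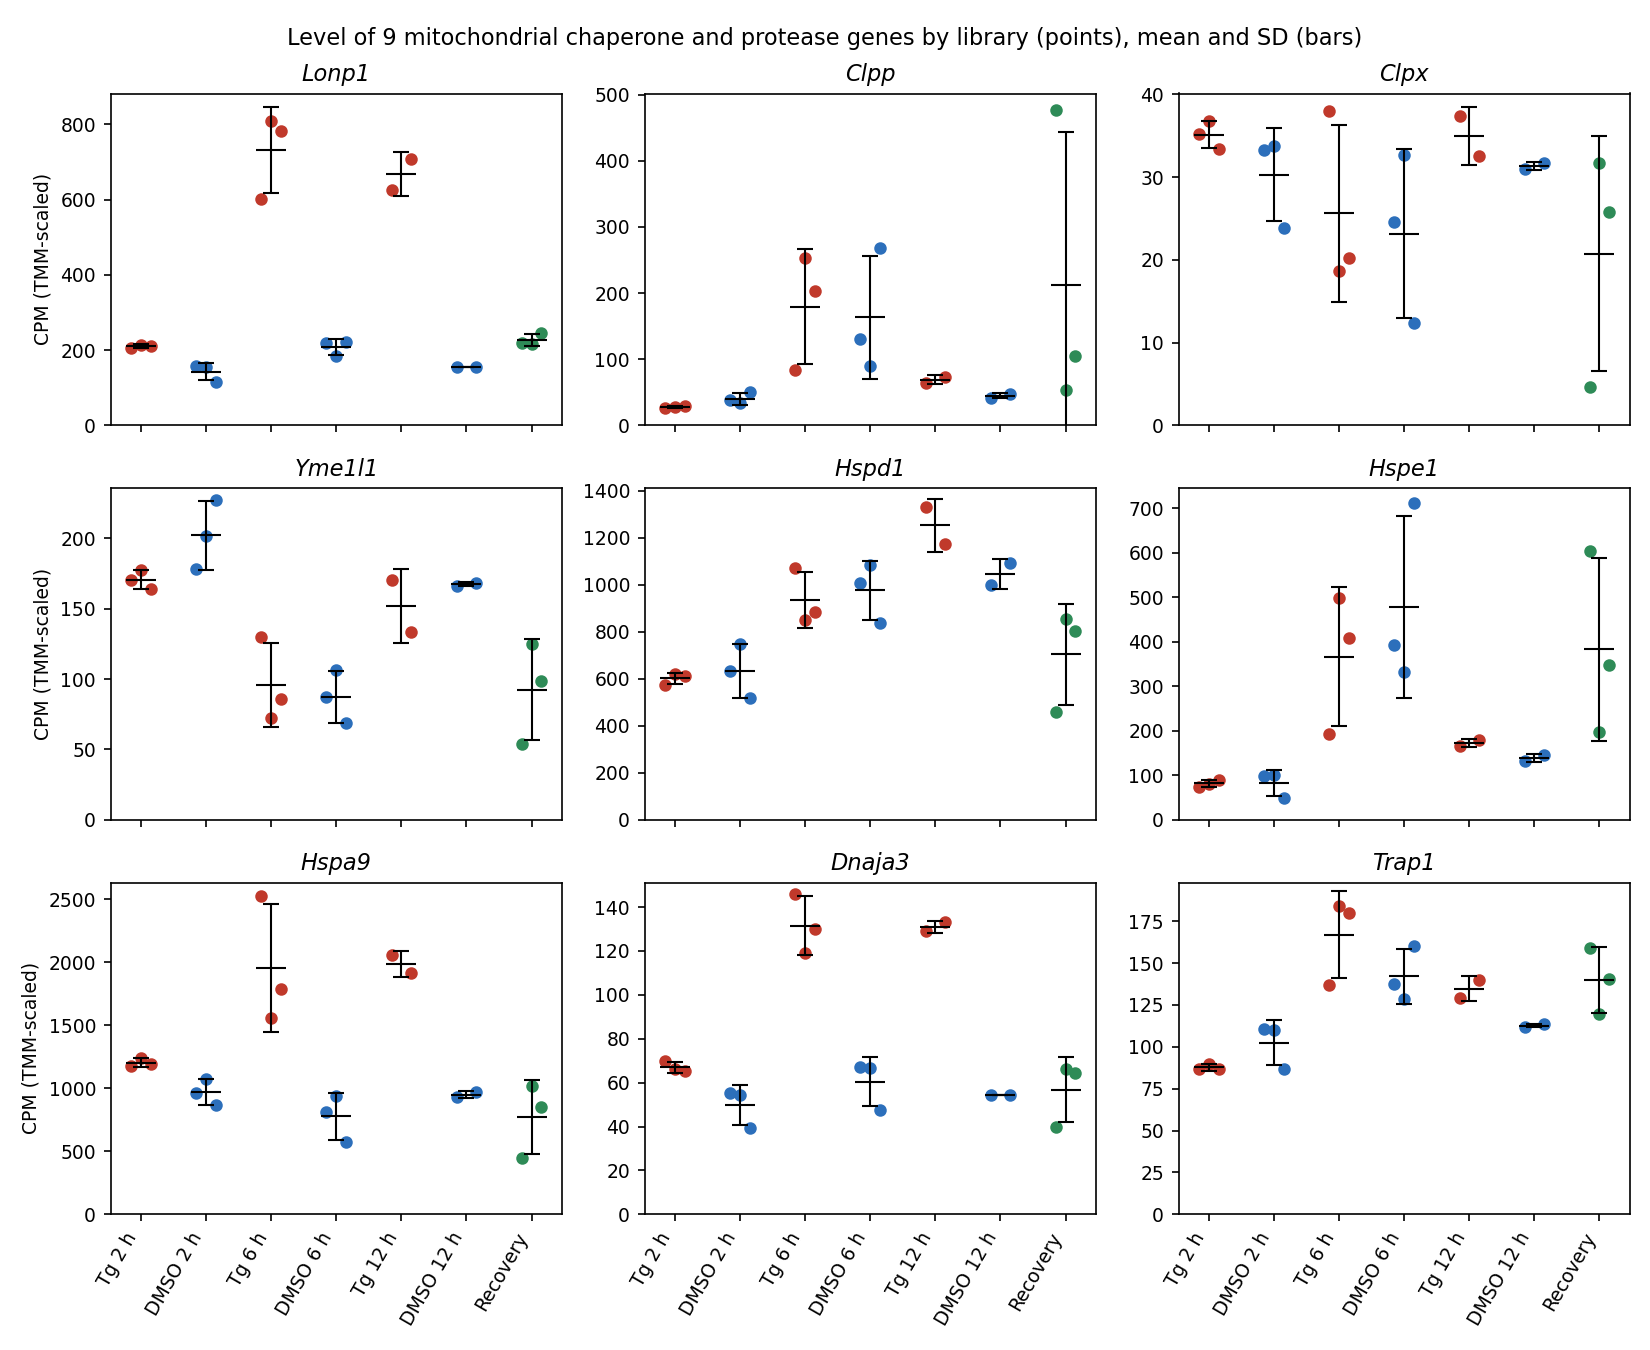
Level of each gene in CPM (vertical axis, linear, from 0) in each library (points) by group (horizontal axis; Tg is thapsigargin), with the mean and SD as bars. Lonp1, Hspa9 and Dnaja3 stand higher in thapsigargin than in DMSO at 6 and 12 h with no overlap. At 12 h, with 2 libraries per group, Clpp, Clpx, Hspd1, Hspe1 and Trap1 also stand higher with no overlap. The share of all genes without overlap was not counted. Clpp, Clpx, Yme1l1 and Hspe1 spread widely among the libraries at 6 h and in recovery. The lower SD bar of Clpp in recovery runs below 0 and is not drawn in full.

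The other 3 protease genes did not pass the test with the drug at any time. Clpp, the peptidase of CLPXP (chromosome 17, plus strand, from 56990305 to 56996188), had 82.9, 252 and 203 CPM in thapsigargin at 6 h against 131, 90.1 and 268 CPM in DMSO. The groups overlapped, and libraries of the same group lay far apart. Its difference was 0.14 (log2, 95% interval -1.13 to 1.40) at 6 h. At 12 h Clpp had 63.9 and 73.7 CPM in thapsigargin and 42.0 and 47.2 CPM in DMSO, with no overlap, yet the difference of 0.63 (-0.93 to 2.19) did not pass either (adjusted p = 0.717).

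Clpx, the unfoldase that feeds CLPP (chromosome 9, plus strand, from 65294260 to 65330658), had 38.0, 18.6 and 20.2 CPM in thapsigargin at 6 h against 24.5, 32.7 and 12.3 CPM in DMSO. Its differences were 0.14 (-0.88 to 1.17) at 6 h and 0.16 (-1.10 to 1.41) at 12 h, when it had 37.4 and 32.5 CPM in thapsigargin and 31.0 and 31.7 CPM in DMSO. The Clpx groups overlapped at 6 h and did not at 12 h. In this fit the intervals of Clpp and Clpx at 6 h are wide, and a rise as large as that of Dnaja3 lies within both. With the length and GC offsets Clpp had 0.22 (-0.46 to 0.90) and Clpx -0.07 (-0.91 to 0.78) at 6 h. Both intervals lie below the Dnaja3 estimate of 0.92 with the same offsets. Yme1l1, the inner membrane protease (chromosome 2, plus strand, from 23156369 to 23199260), had 129.6, 72.3 and 85.6 CPM in thapsigargin at 6 h against 87.1, 106 and 69.0 CPM in DMSO. At 12 h it had 171 and 133 CPM in thapsigargin and 166 and 169 CPM in DMSO, so the groups overlapped at both times. Its differences were 0.13 (-0.45 to 0.72) and -0.14 (-0.85 to 0.57).

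Hspa9 and its J-domain partner Dnaja3 rose with the drug. Hspa9 (chromosome 18, minus strand, from 34937414 to 34954357) is the mitochondrial member of the HSP70 class and the motor of matrix import. It had 2531, 1557 and 1789 CPM in thapsigargin at 6 h against 816, 938 and 578 CPM in DMSO, and 2059 and 1917 CPM in thapsigargin at 12 h against 932 and 969.5 CPM in DMSO. At 2 h it had 1175, 1242 and 1196 CPM in thapsigargin against 967, 1076 and 868 CPM in DMSO. The drug libraries were above the vehicle libraries at each time. By edgeR the rise was 2.52-fold at 6 h (log2 1.33 ± 0.28 SE, adjusted p = 0.00248) and 2.09-fold at 12 h (1.06 ± 0.34, adjusted p = 0.0492), and 0.31 ± 0.27 at 2 h did not pass (adjusted p = 0.66). The call at 12 h was at the edge of the threshold. It ended under total-count scaling (1.07, 0.271), with no filter on low counts (1.02, 0.121), with a replicate block (1.07, adjusted p = 0.0738) and without any 1 of the 4 libraries of 12 h (adjusted p from 0.162 to 0.272). It also ended, at adjusted p from 0.0501 to 0.0684, without replicate 1 or 2 of DMSO at 2 h, 1, 2 or 3 of thapsigargin at 2 h, 1 or 2 of DMSO at 6 h, 2 or 3 of thapsigargin at 6 h, or 3 of recovery, while the difference itself stayed between 0.96 and 1.11 in all 26 settings.

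Dnaja3 (chromosome 16, plus strand, from 4639989 to 4707695), the mitochondrial relative of bacterial DnaJ that hands substrates to Hspa9, had 146, 119 and 130.0 CPM in thapsigargin at 6 h against 67.2, 66.7 and 47.6 CPM in DMSO. At 12 h it had 129 and 133 CPM in thapsigargin and 54.2 and 54.3 CPM in DMSO. It also lay higher at 2 h, with 69.9, 66.1 and 65.2 CPM in thapsigargin and 55.3, 54.5 and 39.2 CPM in DMSO. Again the groups did not overlap at any time. Dnaja3 rose 2.17-fold at 6 h (log2 1.12 ± 0.21 SE, adjusted p = 0.00107) and 2.41-fold at 12 h (1.27 ± 0.26, adjusted p = 0.00304) and did not pass at 2 h (0.43 ± 0.21, adjusted p = 0.304). The call at 12 h ended under total-count scaling (1.28, adjusted p = 0.104). Of its exonic bases, 160 also belong to Vasn on the same strand and 153 to Coro7 on the other, of 3912 in all, and how reads there were counted is not stated.

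Neither gene of the chaperonin, Hspd1 or Hspe1, passed the test with the drug. They stand head to head on chromosome 1, with Hspd1 on the minus strand (from 55077835 to 55088243) and Hspe1 on the plus strand (from 55088132 to 55091307), and 112 exonic bases belong to both; without a stated strand setting, reads there cannot be told apart. Hspd1 had 1072, 849 and 883 CPM in thapsigargin at 6 h against 1008, 1083 and 836 CPM in DMSO. At 12 h it had 1332 and 1172 CPM in thapsigargin and 999 and 1091 CPM in DMSO. The groups overlapped at 6 h and did not at 12 h. Its differences were -0.06 (log2, 95% interval -0.54 to 0.42) at 6 h and 0.26 (-0.33 to 0.85) at 12 h, so the interval at 6 h lies below the estimate for Hspa9 or Lonp1. Hspe1 had 193, 498 and 408 CPM in thapsigargin at 6 h against 391.9, 331 and 712 CPM in DMSO, and 167 and 179 CPM in thapsigargin at 12 h against 132 and 145 CPM in DMSO. Here too the groups overlapped at 6 h and did not at 12 h. Its differences of -0.39 (-1.25 to 0.48) and 0.31 (-0.75 to 1.38) did not pass. Processed pseudogenes that resemble these genes took few reads, at most 1.02% of the Hspd1 count (Hspd1-ps3).

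Trap1, the HSP90-class chaperone of mitochondria (chromosome 16, minus strand, from 4039971 to 4077827), had 137, 184 and 179.6 CPM in thapsigargin at 6 h against 137, 129 and 160.0 CPM in DMSO. At 12 h it had 129 and 139.9 CPM in thapsigargin and 112 and 113 CPM in DMSO, with no overlap. The differences of 0.23 (-0.13 to 0.59) and 0.26 (-0.19 to 0.70) did not pass (adjusted p = 0.382 and 0.545). At 2 h Trap1 (-0.22), Clpp (-0.55), Yme1l1 (-0.24), Hspd1 (-0.07), Hspe1 (-0.02) and Clpx (0.21) did not pass, with adjusted p from 0.59 to 0.994.

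**Figure D2:**
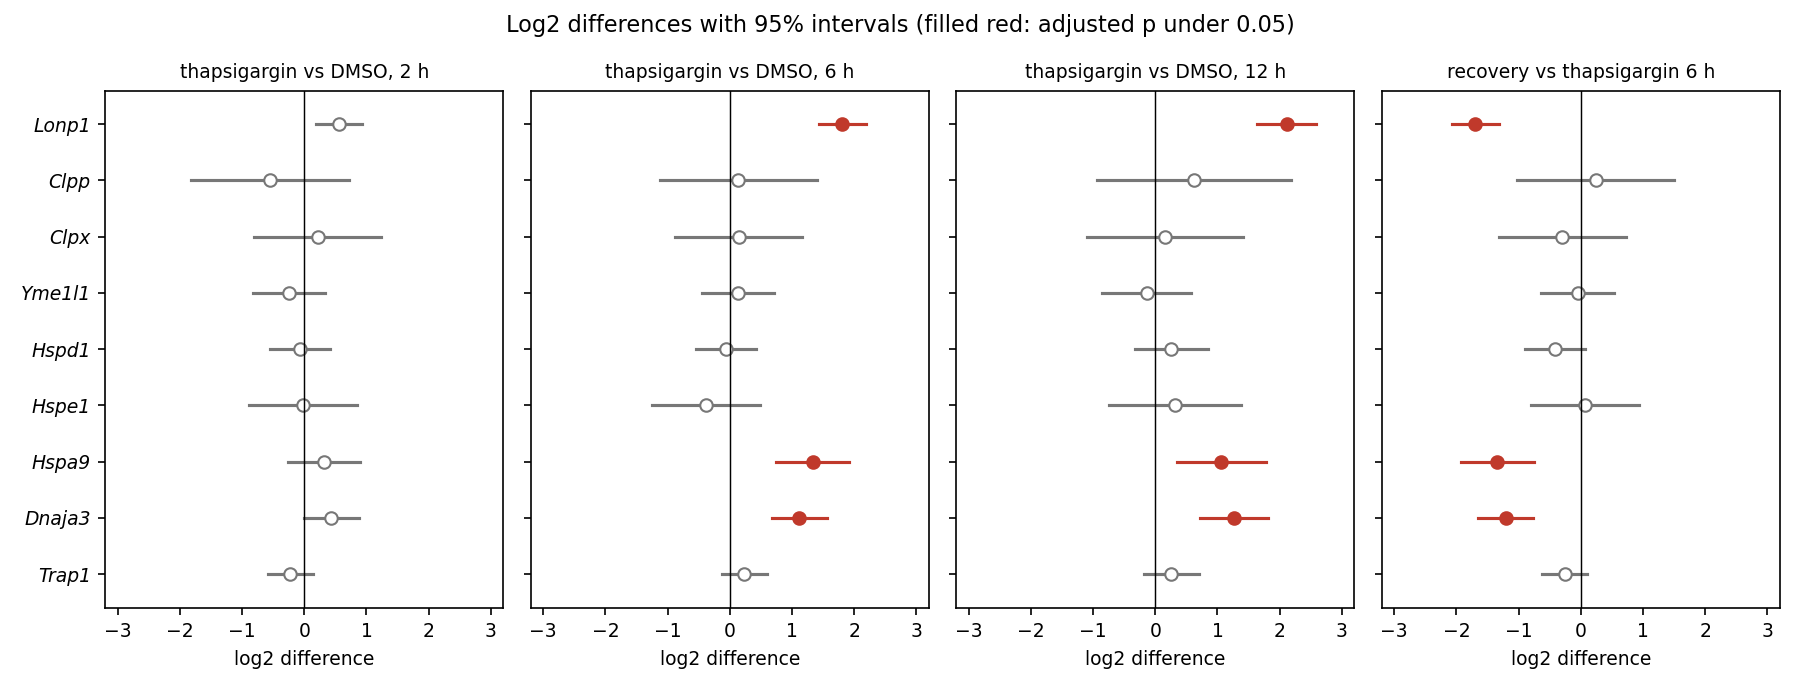
Log2 difference (horizontal axis) with its 95% interval for each gene (rows) in 4 comparisons (panels); filled red points passed at an adjusted p under 0.05. Lonp1, Hspa9 and Dnaja3 are filled to the right at 6 and 12 h and to the left in recovery against thapsigargin at 6 h, and no point is filled at 2 h.

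Counted over the 9 genes, 0 passed at 2 h, where 4.52% of all genes tested did (3.01% higher and 1.51% lower). At an unadjusted p under 0.05 the count at 2 h was 1, and DESeq2 also called 1, Lonp1 in each case. At 6 h 3 rose, 0 fell and 6 did not pass, beside 21.8% of all genes that passed, 13% higher and 8.79% lower. At 12 h 3 rose, 0 fell and 6 did not pass, beside 13.1% of all genes that passed, 6.29% higher and 6.77% lower. The median log2 difference of the 9 genes was -0.02 at 2 h, 0.14 at 6 h and 0.31 at 12 h, against -0.04, 0.01 and 0.01 over all genes tested. Of the 9, 1 responded more at 6 h than at 2 h, under the limits given for Lonp1 above (3 at an unadjusted p under 0.05), where 3.99% of all genes differed (2.12% higher and 1.87% lower), and 0 responded differently at 12 h than at 6 h (0 at an unadjusted p under 0.05 and 0 in DESeq2), where 0.571% of all genes did (0.0388% with a higher and 0.532% with a lower response at 12 h). The other differences between the responses at 6 and 2 h were 1.02 for Hspa9, 0.69 for Dnaja3, 0.68 for Clpp, 0.46 for Trap1, 0.38 for Yme1l1, 0.01 for Hspd1, -0.07 for Clpx and -0.36 for Hspe1. Those between 12 and 6 h ranged from -0.27 (Hspa9 and Yme1l1) through 0.01 (Clpx), 0.02 (Trap1), 0.15 (Dnaja3), 0.32 (Hspd1) and 0.49 (Clpp) to 0.70 (Hspe1). Without the libraries of high mitochondrial RNA, Hspa9 (1.01, adjusted p = 0.0288) and Dnaja3 (0.74, adjusted p = 0.0173) responded more at 6 h than at 2 h as well. Markers of other cell types moved beside these changes. At 6 h, of the epithelial markers, which summed to 16.0 to 28.8 CPM in thapsigargin against 1.12 to 3.36 CPM in DMSO, 3 of the 4 tested rose and Epcam was at 0 in every library. Of the adipocyte markers, which summed to 78.7 to 93.5 CPM in thapsigargin against 25.2 to 30.0 CPM in DMSO, 2 of the 3 tested rose. The endothelial markers summed to 2.64 to 4.79 CPM in thapsigargin against 0.514 to 0.610 CPM in DMSO, with 3 of 3 tested higher and Cldn5 at 0. The macrophage markers summed to 4.13 to 5.64 CPM in thapsigargin against 6.66 to 9.49 CPM in DMSO, with 1 of 3 tested higher and Adgre1 at 0, and the osteoblast markers to 43.3 to 58.3 CPM in thapsigargin against 43.0 to 56.2 CPM in DMSO, with 1 of 4 tested higher. At 12 h the adipocyte markers summed to 127 to 136 CPM in thapsigargin against 46.9 to 52.2 CPM in DMSO, with Lpl higher and Adipoq and Plin1 at 0. Of the endothelial markers at 12 h (2.17 to 2.19 CPM in thapsigargin against 0.527 to 0.830 CPM in DMSO) Tek rose, and of the osteoblast markers (55.2 to 55.8 CPM in thapsigargin against 69.3 to 70.5 CPM in DMSO) Alpl rose. The epithelial markers (1.22 to 2.03 CPM in thapsigargin against 0.600 to 1.58 CPM in DMSO) and the macrophage markers (3.52 to 3.98 CPM in thapsigargin against 4.86 to 5.26 CPM in DMSO) had 0 called at 12 h. Markers of muscle differentiation summed to 29.7 to 62.8 CPM in thapsigargin at 6 h against 50.7 to 89.9 CPM in DMSO, with 0 of 8 called, and to 8.31 to 8.78 CPM in thapsigargin at 12 h against 15.7 to 16.9 CPM in DMSO, with Myh3 lower. The part of these markers in the members' changes was not tested, and in bulk samples fewer cells of a type and less RNA per cell cannot be told apart.

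Ratios between the genes within a library do not depend on how the library was scaled. They come from the same libraries as the calls above and are not independent of them. The Lonp1 to Hspd1 ratio of CPM was 0.56, 0.95 and 0.89 in thapsigargin at 6 h against 0.22, 0.17 and 0.27 in DMSO, and 0.47 and 0.60 in thapsigargin at 12 h against 0.16 and 0.14 in DMSO. Averaged over both times, its log2 was 1.86 higher with the drug, the drug libraries being above the vehicle libraries at each time. An exact permutation test (two-sided, groups exchanged within each time, 120 arrangements, adjusted over all 36 pairs of the 9 genes) gave an unadjusted p of 0.01667, the smallest it can give, and an adjusted p of 0.04 for this ratio. The ratio of Hspa9 to Dnaja3 was 17.4, 13.1 and 13.8 in thapsigargin at 6 h against 12.2, 14.1 and 12.1 in DMSO, and its mean shift of -0.01 (exact permutation p = 0.983) was near 0. Lonp1 gained on Hspa9 by 0.76 and on Dnaja3 by 0.75, which did not pass (exact permutation test, adjusted p = 0.0947 and 0.0667). Of all 36 pairs 15 passed, each of them at the smallest p this test can give. Their adjusted p of 0.04 (same permutation test) depends on how many pairs share that smallest p. Of the 15, 14 set Lonp1, Hspa9 or Dnaja3 against 1 of the other 6 genes, so the pairs are not independent of each other.

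After 48 h without the drug, the 3 genes that had risen at 6 h were lower again, and none of them passed against the vehicle of 6 h. Lonp1 had 218, 216 and 244 CPM in recovery, against 600.3, 810.1 and 783 CPM in thapsigargin at 6 h. Hspa9 had 449, 1017 and 854 CPM and Dnaja3 39.8, 66.3 and 64.3 CPM in recovery, and neither overlapped with thapsigargin at 6 h. By edgeR, Lonp1 fell by 1.70 ± 0.18 (log2, 3.24-fold lower, adjusted p = 5.64e-06), Hspa9 by 1.34 ± 0.28 (2.53-fold lower, adjusted p = 0.00214) and Dnaja3 by 1.21 ± 0.21 (adjusted p = 0.000518). Among the 9 genes 3 fell and 0 rose, beside 25.5% of all genes that passed, 13.9% lower and 11.6% higher. The other 6, from -0.41 for Hspd1 through -0.30 (Clpx), -0.26 (Trap1), -0.05 (Yme1l1) and 0.06 (Hspe1) to 0.24 for Clpp, did not pass. This comparison and that of thapsigargin with DMSO at 6 h share the thapsigargin libraries. Replicate 1 of recovery, the library of 14.9% mitochondrial RNA, was the lowest of its group for Hspa9, Dnaja3, Hspd1, Clpx and Yme1l1 and the highest for Clpp (477 CPM, beside 53.6 and 105), Hspe1 and Trap1. Without it and replicate 3 of DMSO at 2 h, the falls were -1.67, -1.07 and -1.01 and all 3 still passed, and Clpp stood at -1.18 in place of 0.24 (log2, adjusted p = 0.0677 and 0.811).

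Against DMSO at 6 h, recovery differed in 0 of the 9 genes (0 also at an unadjusted p under 0.05 and 0 in DESeq2), where 0.327% of all genes did (0.205% higher and 0.122% lower). The differences were 0.11 (log2, 95% interval -0.25 to 0.48) for Lonp1, -0.01 (-0.59 to 0.57) for Hspa9 and -0.09 (-0.53 to 0.35) for Dnaja3, and these intervals lie below the rises measured at 6 h. The others ranged from -0.47 (-0.95 to 0.01) for Hspd1 through -0.32 (Hspe1), -0.15 (Clpx), -0.02 (Trap1) and 0.08 (Yme1l1) to 0.38 (-0.89 to 1.64) for Clpp. Without the libraries of high mitochondrial RNA, Clpp stood at -1.07 and Hspe1 at -0.85, against 0.38 and -0.32 with them, and none passed.

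Vehicle groups differed between times in 6 of the 9 genes. With DMSO at 6 h set against DMSO at 2 h, 5 rose and 1 fell, beside 49.6% of all genes that passed, 24.6% higher and 25% lower. Hspe1 had 391.9, 331 and 712 CPM in DMSO at 6 h against 98.0, 101 and 49.6 CPM in DMSO at 2 h, a rise of 2.53 ± 0.43 (log2, adjusted p = 0.000498). Clpp rose by 2.01, Hspd1 by 0.62, Lonp1 by 0.55 and Trap1 by 0.47, and Yme1l1 fell by 1.21, with 87.1, 106 and 69.0 CPM in DMSO at 6 h against 178, 202 and 227 CPM in DMSO at 2 h. Dnaja3 (0.28), Hspa9 (-0.32) and Clpx (-0.39) did not pass. Among these 6 calls that of Hspe1 alone held in all 26 settings, and that of Yme1l1 ended under the length and GC offsets described below. The call of Hspd1 ended in 10 settings, under total-count scaling (adjusted p = 0.267), with no filter (0.134) and, at adjusted p from 0.0505 to 0.103, without DMSO replicate 1 or 3 at 2 h, DMSO replicate 1 or 2 at 6 h or any 1 of the 4 libraries of 12 h. The call of Trap1 ended in 8, under total-count scaling (0.227), with no filter (0.243), with a replicate block (0.0516), with the offsets with and without that block and, at 0.0552 to 0.127, without DMSO replicate 3 at 2 h or DMSO replicate 1 or 3 at 6 h. The call of Lonp1 ended in 5, under total-count scaling (0.211), with no filter (0.168) and, at 0.0526 to 0.0602, without those same libraries 1 at a time. The call of Clpp ended in 4, with the offsets with and without the block and without DMSO replicate 2 at 2 h (0.0515) or DMSO replicate 3 at 6 h (0.083).

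With DMSO at 12 h set against DMSO at 6 h, Hspe1 fell by 1.79 (adjusted p = 0.0137) and Yme1l1 rose by 0.94 (adjusted p = 0.0279), so 1 gene was higher and 1 lower, beside 35.4% of all genes that passed, 18.7% higher and 16.8% lower. Clpp (-1.87), Lonp1 (-0.43), Trap1 (-0.33), Dnaja3 (-0.16), Hspd1 (0.10), Hspa9 (0.29) and Clpx (0.43) did not pass, although Clpp passed in 9 of the 26 settings. The call of Hspe1 ended without DMSO replicate 3 at 6 h (-1.38, adjusted p = 0.058) and without either DMSO library of 12 h (0.0892 and 0.105). The call of Yme1l1 ended in 8 settings, under total-count scaling (0.0635), with a replicate block (0.0557), with the offsets with and without that block and, at 0.0615 to 0.131, without DMSO replicate 1 or 3 at 6 h or either DMSO library of 12 h. These 2 comparisons share the DMSO libraries of 6 h.

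The vehicle differences moved with the length trend of the libraries. Over the 8 DMSO libraries, which also differ in depth and time, log2 CPM had a Pearson correlation with the length trend of 0.99 for Yme1l1 (longest transcript 4707 bases), -0.98 for Hspe1 (964 bases), -0.94 for Trap1 (2320 bases), -0.94 for Lonp1 (4362 bases) and -0.93 for Clpp (983 bases). It was 0.72 for Hspa9, 0.62 for Clpx, -0.49 for Hspd1 and -0.44 for Dnaja3. Over all 19 libraries, drug and recovery included, it was 0.97 for Yme1l1, -0.97 for Hspe1, -0.94 for Clpp, -0.87 for Trap1 and 0.71 for Clpx, and -0.33 for Lonp1, 0.33 for Hspa9, -0.10 for Hspd1 and -0.07 for Dnaja3. With offsets for transcript length and GC content in the fit, DMSO at 6 h against 2 h gave 1.90 for Hspe1, 0.62 for Hspd1 and 0.51 for Lonp1, which still passed, and 0.49 for Clpp, -0.04 for Yme1l1 and 0.10 for Trap1, which did not (adjusted p = 0.235, 0.827 and 0.504). For DMSO at 12 h against 6 h, Hspe1 kept -1.55 (adjusted p = 0.00587), and Yme1l1 turned to -0.26 (adjusted p = 0.206). With these offsets the drug differences were 1.79 (Lonp1), 1.13 (Hspa9) and 0.92 (Dnaja3) at 6 h and 2.20, 0.96 and 1.10 at 12 h, and all of them passed.

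**Figure D3:**
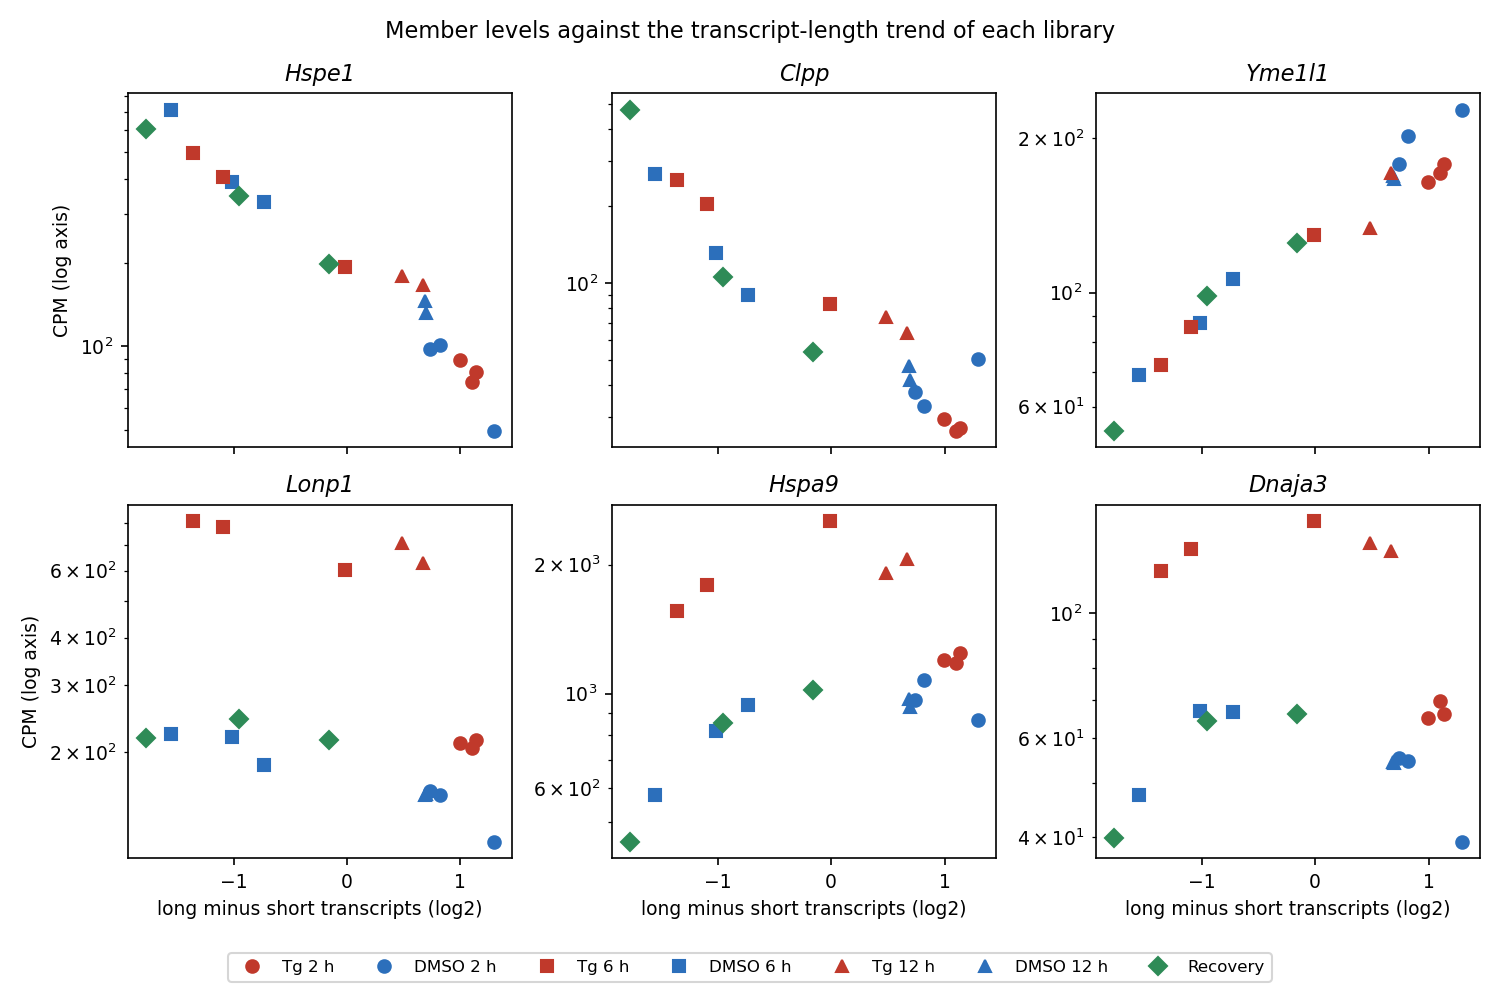
CPM on a log axis (vertical) against the length trend of each library (horizontal, log2, long minus short transcripts) for 6 genes, with groups by colour and shape. Hspe1 and Clpp fall and Yme1l1 climbs along the trend (r = -0.97, -0.94 and 0.97 over 19 libraries), while the drug libraries at 6 and 12 h (red squares and triangles) stand above the rest for Lonp1, Hspa9 and Dnaja3.

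Per length, in TPM (transcripts scaled to a fixed sum per library), Hspd1 and Hspa9 were the most abundant on average in 5 of the 7 groups, and Clpx was the least abundant in each. In DMSO at 6 h Hspe1 (759 ± 101 TPM, SD, n = 3) stood above Hspa9 (472 ± 210 TPM) with no overlap, and in recovery the means of Hspe1 and Hspa9 were 512 and 506 TPM and overlapped. In DMSO at 12 h, where the libraries lay closest, Hspd1 averaged 1592 ± 90.0 TPM (SD, n = 2), Hspa9 888 ± 19.8, Hspe1 379 ± 23.5, Trap1 176 ± 0.41, Clpp 147 ± 11.5, Lonp1 142 ± 1.49, Yme1l1 84.2 ± 0.33, Dnaja3 55.8 ± 0.27 and Clpx 36.1 ± 0.35 TPM. Only Clpp and Lonp1 overlapped there among neighbours in this order. In thapsigargin at 12 h Lonp1 moved up to the third place with 607 ± 45.3 TPM (n = 2), above Hspe1 with 465 ± 17.3 TPM, and Hspa9 with 1835 ± 115 TPM overlapped with Hspd1 at 1886 ± 194 TPM. At 6 h Hspa9 averaged 1403 ± 705 TPM and Hspd1 1070 ± 398 TPM in thapsigargin (n = 3), overlapping across libraries. Within each of these libraries Hspa9 was ahead of Hspd1 (2201 and 1522, 868 and 772, 1139 and 917 TPM). In DMSO Hspd1 (950 ± 340 TPM on average) was ahead of Hspa9 in each library (1051 and 522, 1228 and 652, 571 and 242 TPM). In recovery each gene overlapped across libraries with the next in order, from Hspd1 (733 ± 520 TPM) to Clpx (18.4 ± 16.0 TPM). Replicate 1, the library of 14.9% mitochondrial RNA, had the lowest TPM of its group for each gene but Clpp. Within each recovery library Trap1 stood above Dnaja3, Dnaja3 above Yme1l1 and Yme1l1 above Clpx. The measured ratio of the chaperonin genes differed among libraries. Hspd1 had 0.76 to 4.30 times the CPM of Hspe1 in recovery and 6.44 to 10.5 times in DMSO at 2 h. Without the libraries of high mitochondrial RNA these ranges were 2.307 to 4.30 and 6.44 to 7.42. In recovery, ratios of 0.76, 2.307 and 4.30 went with length trends of -1.77, -0.95 and -0.16. The part of the length trend in this ratio was not tested.

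Few other genes of mitochondrial protein handling passed the test with the drug. Of all genes tested, 13% were higher and 8.79% lower at 6 h, and 6.29% and 6.77% at 12 h. In recovery against thapsigargin at 6 h, 13.9% were lower. Of 15 other mitochondrial proteases and peptidases, 1 rose at 6 h and at 12 h, Parl, the rhomboid protease of the inner membrane (0.62 ± 0.19, adjusted p = 0.0258, and 1.12 ± 0.23, adjusted p = 0.00352), and the median of the list was -0.02 and -0.07. Of 12 other mitochondrial chaperones and assembly factors, 0 passed at 6 or 12 h (1 and 2 at an unadjusted p under 0.05), among them Grpel1, the exchange factor of Hspa9 (-0.07 ± 0.31 and 0.10 ± 0.37). Of 21 import genes tested, 0 passed at 6 or 12 h (2 and 0 at an unadjusted p under 0.05), and 4 were lower in recovery than in thapsigargin at 6 h, led by Timm8a1 (-1.34) and Timm9 (-1.33), small chaperones of the intermembrane space. Of 24 nuclear subunits of oxidative phosphorylation, 0 rose and 2 fell at 6 h, Sdhd (-1.31) and Sdhc (-0.83), the membrane anchors of complex II, and 0 passed at 12 h (2 at an unadjusted p under 0.05). These lists also differed between vehicle groups. From DMSO at 2 h to 6 h, 8 of the 15 proteases, 9 of the 12 chaperones, 17 of the 21 import genes and 17 of the 24 subunits rose. Of all genes, 24.6% rose there. The part of the length trend in these vehicle differences was not tested. Of 13 mitochondrially encoded mRNAs, 0 passed at 2, 6 or 12 h (6, 0 and 0 at an unadjusted p under 0.05). In recovery against thapsigargin at 6 h, 8 of them were higher and 0 lower, beside 11.6% of all genes that were higher. The comparison at 2 h holds DMSO replicate 3 (15.8% mitochondrial RNA), and that of recovery holds its replicate 1 (14.9%). Of 14 genes of mitochondrial biogenesis and mass, 1 rose at 6 h, the coactivator gene Ppargc1a (4.11 ± 0.63; 8.48 ± 3.70 CPM in thapsigargin and 0.48 ± 0.21 CPM in DMSO, SD, n = 3), which did not pass at 12 h (2.10 ± 0.68, adjusted p = 0.0531).

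Several genes listed as regulators of the mitochondrial and integrated stress responses rose beside the members. Of 12 genes in this list, 5 rose at 2 h, 7 at 6 h and 6 at 12 h, and 0 fell. Of all genes tested, 3.01%, 13% and 6.29% were higher at these times. Trib3, whose pseudokinase product restrains ATF4, and Ddit3 led at 6 h (4.71 ± 0.31 and 4.44 ± 0.74) and at 12 h (4.55 ± 0.38 and 4.01 ± 0.89). Atf5, a factor tied to the mitochondrial stress response in mammals, had 0.12 ± 0.21 at 2 h (adjusted p = 0.869), rose by 1.80 ± 0.21 at 6 h and also passed at 12 h, and its response was larger at 6 h than at 2 h by 1.68 ± 0.29 (adjusted p = 0.00336). Of the 12 genes, Atf5 was the 1 that passed with a larger response at 6 h than at 2 h. The 2 that passed with a smaller one were Chac1 (-3.51) and Trib3 (-1.48). Atf4 rose by 2.03 ± 0.23 at 2 h, when Lonp1, Hspa9 and Dnaja3 had not passed. All 3 genes already lay above the vehicle libraries then, and Lonp1 passed at 2 h in 4 of the 26 settings. An order in time between Atf4 and these genes was not tested. Dele1, which relays mitochondrial stress to the integrated stress response, did not pass (0.19 ± 0.14 at 6 h, adjusted p = 0.388). Between DMSO at 6 h and at 2 h, 8 of these 12 genes rose and 2 fell, with Chac1 at 4.04 and Ddit3 at 3.08 ± 0.70, so the vehicle level that the drug is set against at 6 h was itself higher for most of them, as it was for Lonp1.

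At 6 and 12 h the estimates for Hspa9, Trap1 and Dnaja3 stood between those of their ER and cytosolic counterparts. In the HSP70 class, the difference at 6 h was 3.37 ± 0.36 (log2) for Hspa5 of the ER, 1.33 ± 0.28 for Hspa9 and -1.26 ± 0.27 for Hspa8 of the cytosol, and Hspa5 and Hspa9 rose while Hspa8 fell. At 12 h they were 4.17 ± 0.46, 1.06 ± 0.34 and -0.63 ± 0.32, the last of which did not pass (adjusted p = 0.249). In the HSP90 class, Hsp90b1 of the ER rose by 1.93 ± 0.25 at 6 h, and neither Trap1 (0.23) nor Hsp90ab1 of the cytosol (-0.55 ± 0.19, adjusted p = 0.05, on the threshold and not under it) passed. In the J-domain class, Dnajb11 of the ER rose by 1.27 ± 0.22 and Dnaja3 by 1.12 ± 0.21, and Dnaja1 of the cytosol fell by 1.16 ± 0.36 (adjusted p = 0.0273). Cct2, a subunit of the cytosolic chaperonin, had -0.11 ± 0.24 at 6 h and did not pass, as Hspd1 did not. As lists, 11 of 12 ER chaperones rose at 6 h and at 12 h, led by Dnajb9 (3.71) and Hspa5 at 6 h and Hspa5 and Sdf2l1 (4.02) at 12 h, against 0 of 15 cytosolic chaperones, of which 5 fell at 6 h and 1 at 12 h, Hspa1b (-2.41 at 6 h and -1.36 at 12 h). In recovery against thapsigargin at 6 h, 12 of 12 ER chaperones fell, Hspa5 by 4.24, and 4 of 15 cytosolic chaperones rose. Of all genes tested, 13% were higher and 8.79% lower at 6 h, and 6.29% and 6.77% at 12 h. For recovery against thapsigargin at 6 h, 11.6% were higher and 13.9% lower. Differences between classes were not tested.

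**Figure D4:**
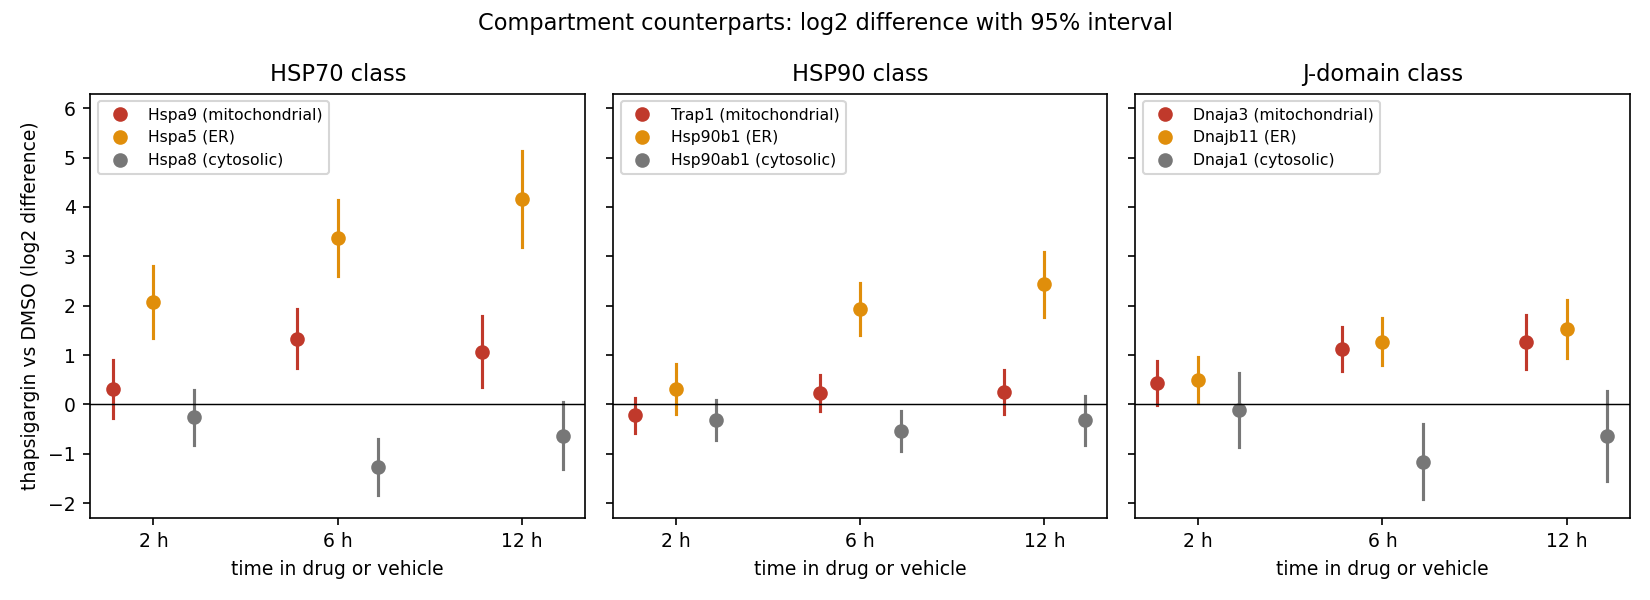
Log2 difference of thapsigargin against DMSO (vertical axis) with 95% intervals at 2, 6 and 12 h (horizontal axis) for the mitochondrial (red), ER (orange) and cytosolic (grey) member of 3 chaperone classes (panels). Hspa9 and Dnaja3 lie above 0 at 6 and 12 h, Trap1 overlaps 0 at each time, and the cytosolic genes lie below 0 at 6 h.

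Across the 19 libraries, levels of some of the genes went together. Log2 CPM of Dnaja3 correlated with that of Lonp1 (Pearson r = 0.92) and Hspa9 (0.90), and Lonp1 with Hspa9 (0.72). Clpp, Hspe1 and Trap1 went together (0.92 for Clpp and Hspe1, 0.91 for Hspe1 and Trap1, 0.89 for Clpp and Trap1) and opposite to Yme1l1 (-0.95 with Hspe1). For the other partners the correlation was 0.27 (Hspd1 and Hspe1) and -0.82 (Clpp and Clpx). The genes did not fall into separate sets. Lonp1 also correlated with Trap1 (0.64), Hspd1 with Dnaja3 (0.61), and Clpx with both Yme1l1 (0.77) and Hspa9 (0.62). These values describe libraries that share treatment, depth and the length trend. Among 10340 genes whose CPM averaged 5 or more, the 3 most like Lonp1 were Angptl6 (r = 0.98), Dyrk4 and the amino acid transporter gene Slc3a2, and those most like Dnaja3 included Got1, an aspartate transaminase (0.99), and Cth, which makes cysteine. For Hspa9 they were C9orf72 (0.98), Alg2 and Slc6a9, and for Trap1 Kdelr3 (0.98), Tmed3 and Srp9. Hspd1 had the weakest likeness, with Pop1 (0.92), Ppid and 2700097O09Rik. The genes most like Hspe1 were Mrps17 (0.996), Eef1g and Sra1, those most like Clpp were 1700021F05Rik (0.99), Aup1 and Scnm1, those most like Clpx were D230025D16Rik (0.99), Rraga and Glmn, and those most like Yme1l1 were Rps6ka3 (0.99), Rdx and Nxt2.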

How the data were processed

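Raw counts per gene, as whole numbers, were deposited for each of 19 libraries. Per the submitters' processing notes, Trim Galore, STAR 2.5.3a, bedtools 2.31.0, DESeq2 and the build mm10 were used; which program counted reads, with what strand setting and on which annotation, is not given in the sources used here. The 5 lines of unassigned reads in each file (13.7% to 28.7% of all reads counted) were left out. Of the 55401 identifiers, 55141 matched GENCODE M21 (GRCm38) by base identifier.

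Low counts were removed with filterByExpr (18039 genes kept), and TMM-scaled counts were fitted in 1 quasi-likelihood model with a mean per group and no replicate block (edgeR 4.0.16, limma 3.58.1, R 4.3.3; common biological coefficient of variation 0.352). P-values were two-sided and adjusted by the Benjamini-Hochberg method over all genes tested, with a threshold of 0.05 for a call. The script was tested on simulated data first. CPM use TMM-scaled library sizes; TPM divide by the exonic bases of M21. Correlations use log2 CPM with a prior count of 2. The length trend uses 12001 genes. Ratios of members were tested by exact permutation, listing all arrangements within each time (Python 3.11.15, numpy 2.4.6). Alternatives were total-count scaling, no filter on low counts, a replicate block, length and GC offsets, both together, leaving out the 2 libraries of high mitochondrial RNA or each library in turn, and DESeq2 1.42.0. Counting error is small at these depths, and 2 or 3 libraries per group limit the precision.

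All 9 members are named in each comparison. From other lists the counts are given, with the 2 called genes of the largest change at 6 and 12 h, the paralogs of other compartments in full and the 3 genes most like each member, 1 of which is not reported here. Grpel1, Dele1, Atf4, Atf5, Chac1, Timm8a1 and Timm9 and some markers are named outside that rule, chosen after their values were seen. The members and lists were chosen with earlier results of these data known.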

Additional observations from a re-analysis of the deposited data

Results flagged for a closer look

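The response of Lonp1 to thapsigargin differed between times: the log2 difference at 6 h minus that at 2 h was 1.25 ± 0.25 SE, with an adjusted p of 0.00811 in edgeR's test of the difference itself. The 3 drug libraries lay above the 3 vehicle libraries at both times. It did not pass under total-count scaling (1.16, adjusted p = 0.156) or with no filter on low counts (1.23, adjusted p = 0.0969), and it passed in the other 24 of 26 settings. Leaving out each of the 19 libraries in turn did not end the call.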

How the results depend on the processing

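Of the 9 genes, 3 passed at 6 h, 3 in recovery against thapsigargin and 0 in recovery against DMSO and in the response at 12 h against 6 h, and these counts held in all 26 alternatives. At 2 h the count of 0 became 1 (Lonp1) with length and GC offsets, without the 2 libraries of high mitochondrial RNA and in DESeq2, and 0 to 1 without 1 library. At 12 h the 3 calls became 1 under total-count scaling and 2 to 3 without 1 library. For the response at 6 h against 2 h, 1 call became 0 under total-count scaling and 0 with no filter, 3 without the 2 libraries, 3 in DESeq2, and 1 to 2 without 1 library. For DMSO at 6 h against 2 h, 6 calls became 3 under total-count scaling, with no filter and with the offsets, with or without the block, and 3 to 6 without 1 library. For DMSO at 12 h against 6 h, 2 calls became 1 with the block or the offsets or both, 5 without the 2 libraries, 4 in DESeq2, and 0 to 3 without 1 library. There Yme1l1, at 0.94 without them, turned to -0.26 with the offsets and to -0.26 with the offsets and the replicate block; the cause was not tested.

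Whether same-numbered samples were paired is not stated, and their correlations cannot settle it. Deviations of same-numbered thapsigargin and DMSO libraries correlated by -0.00, 0.02 and 0.00 at 2 h. They correlated by 0.30, -0.61 and 0.39 at 6 h and by -0.00 at 12 h. At 6 h, libraries of unlike number correlated from -0.70 to 0.67, and the length trend differed among these libraries. At 12 h, with 2 libraries per group, the deviations mirror each other, so the values can differ in sign only. With the replicate block, 2 genes passed at 12 h in place of 3 (Hspa9 1.07, adjusted p = 0.0738) and 3 at 6 h as without it. Over all genes, calls lay between 320 and 1901 at 2 h (816 in the main analysis), 2897 and 6588 at 6 h (3926), 1124 and 4539 at 12 h (2356), 3342 and 6249 in recovery against thapsigargin (4601), 17 and 422 in recovery against DMSO (59), 321 and 1975 (719) and 12 and 732 (103) for the 2 differences in response, and 6131 and 10763 (8955) and 1529 and 10088 (6393) between vehicle groups. Total-count scaling shifted the all-gene median log2 difference: at 2 h it was 0.17 in place of -0.04, at 6 h 0.14 in place of 0.01, in recovery against thapsigargin -0.13 in place of 0.04, and for DMSO at 12 h against 6 h 0.29 in place of 0.00. Counting depth did not limit the members, whose lowest count was 58.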
